A study of Mus musculus with 8 samples.

Results

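The suppressors of cytokine signalling (SOCS) are encoded in the mouse by Cish and Socs1 to Socs7, and the rows of these 8 genes were taken by symbol from a count table of 23143 genes. The table held 8 libraries of RNA from RAW264.7 cells, a mouse macrophage line. A single culture was left untreated (0 min), and the other 7 received lipopolysaccharide (LPS) of E. coli at 100 ng/ml for 15, 30, 45, 60, 75, 90 or 120 min. The same cell line was used throughout, with 1 library per time point. No difference between time points therefore has a replicate check, intervals cover counting error only, and a test of a pair of libraries compares those libraries, not the treatments.

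SOCS proteins carry an SH2 domain, which binds phosphorylated tyrosine, and a SOCS box, which recruits elongins and a cullin to form a ubiquitin ligase. SOCS1 and SOCS3 also hold a short kinase inhibitory region that blocks Janus kinases (JAKs), while CIS, the product of Cish, and SOCS2 bind phosphorylated receptor chains. Because STAT transcription factors induce Cish, Socs1, Socs2 and Socs3, these genes are textbook examples of negative feedback on cytokine receptors, and SOCS1 and SOCS3 are known to restrain macrophage activation.

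Total counts per library lay between 100250892 and 159077286, and 16967 genes had at least 1 count. Counts were divided by median-of-ratios size factors, lowest at 75 min (0.71) and highest at 120 min (1.23), to give normalized counts. All 9 macrophage markers examined reached a mean of at least 10 normalized counts, with a summed level of 5670 to 6905 counts per 1e6 counts (cpm), whereas 5 T cell markers summed to 0.671 to 1.27 cpm with Cd3g at 0, 5 B cell markers to 0.18 to 0.401 cpm with Pax5 at 0, and neither 5 fibroblast nor 4 epithelial markers exceeded 0.00946 cpm, with Col1a1, Col1a2, Col3a1, Dcn, Epcam, Krt18 and Cdh1 at 0. The ribosomal RNA precursor Rn45s took 8.18% to 9.11% of the counts at 0, 30, 60 and 120 min and 13% to 20.5% at 15, 45, 75 and 90 min. The labels name no batch, and ratios within each of these sets of 4 libraries are given where a member's course turns between them.

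In unstimulated cells, Socs6, Socs7 and Socs3 were the most abundant SOCS mRNAs per length, and Socs3 led from 30 min of LPS on. Levels of different genes were compared as rpkm (counts per kb of unique 58-base positions in the transcript and per 1e6 counts). At 0 min the rpkm value was 9.17 for Socs6 (exact Poisson 95% interval 8.87 to 9.49), 6.46 for Socs7 (6.3 to 6.63), 4.63 for Socs3 (4.4 to 4.87), 3.27 for Socs5 (3.13 to 3.42) and 2.3 for Socs4 (2.21 to 2.41). Far below these stood Socs1 at 0.0841 (0.0575 to 0.119), Socs2 at 0.0145 (0.0047 to 0.0338) and Cish with no count, which allows up to 0.0082 rpkm. None of the intervals of neighbours in this order overlapped down to Socs2. The place of Socs6 depended on the transcript chosen: with its longest annotated transcript the rpkm value at 0 min was 4.35, below those of Socs7 and Socs3.

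At 120 min the order was Socs3, Socs6, Socs7, Socs5, Socs4, Cish, Socs1 and Socs2. Socs3 reached 204 rpkm (203 to 206), against 11.7 for Socs6 (11.4 to 12), 8.44 for Socs7 (8.27 to 8.61) and 7.86 for Socs5 (7.66 to 8.07). Socs4 stood at 3.21 (3.1 to 3.31), with Cish just beneath it at 2.88 (2.73 to 3.05) and Socs1 still at 0.236 (0.194 to 0.285). With the longest annotated transcript as length, Cish was at 1.71 and Socs6 at 5.55, below Socs7 and Socs5, and Socs1 was at 0.396 with the shorter RefSeq gene span as length. The summed rpkm of the family was 25.9 before LPS, 75 at 60 min and 238 at 120 min. Socs3 made up 17.9% of it in the untreated library, 61.4% by 30 min and 85.6% by 120 min. At 15 min Socs3 (10.8 rpkm, 10.4 to 11.1) and Socs6 (10.2, 9.85 to 10.5) had overlapping intervals, and at 30 min Socs3 stood at 35.8 (35.2 to 36.5) above all other members.

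**Figure D1:**
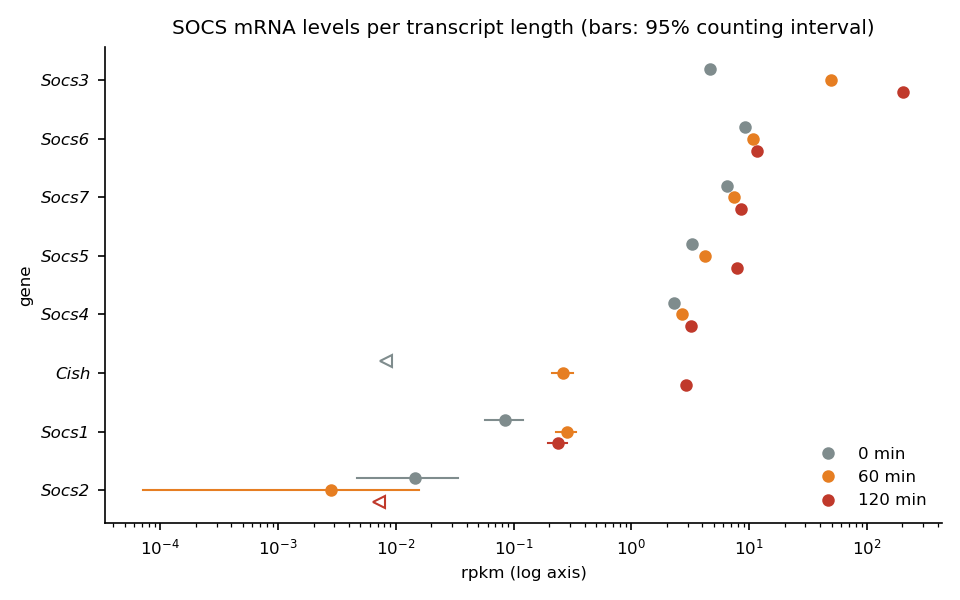
Level of each SOCS mRNA in rpkm (log axis) at 0, 60 and 120 min, with 1 library per point, 95% counting intervals as bars and open triangles at the limit that a count of 0 allows. Socs3 moves from 4.63 to 204 rpkm and passes Socs6 and Socs7, while Cish and Socs1 stay at or under 2.88 rpkm.

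A gene was called higher or lower than in the 0 min library when its log2 ratio of normalized counts went beyond 0.5 and an exact negative binomial test of the 2 libraries gave an unadjusted p-value under 0.05. The background is the share called among the 12166 genes that averaged at least 10 normalized counts. Of the 8 members 7 passed this filter, Socs2 did not, and Cish did so through its stimulated libraries. At 15 min, 1 of 8 members was called higher (Socs3), against 0.37% of all genes tested. At 30 min there were 2 (Cish and Socs3), against 1.42%. At 45 and 60 min there were 3 (Cish, Socs1 and Socs3), against 4.63% and 4.23%. Socs5 and Socs6 joined Cish and Socs3 at 75 and 90 min, making 4 members against 5.86% and 7.05% of all genes, and at 120 min the 4 were Cish, Socs1, Socs3 and Socs5, against 9.41%. No member was called lower at any time, where the background share, in order of time from 15 to 120 min, was 0.181%, 0.23%, 1.85%, 3%, 4.32%, 5.52% and 8.57%.

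Some of these calls turned on the threshold. Under Benjamini-Hochberg adjustment over all genes, the calls of Socs3 at 15 min, Cish at 30 min, Socs1 at 45 min, Socs5 at 75 and 90 min and Socs6 were lost. The median log2 ratio of the 7 members that passed the filter (pseudocount of 1 normalized count) was 0.16, 0.46 and 1.47 at 30, 60 and 120 min. Over all genes it was 0.01, 0.00 and -0.01. The median of the members was the same at these times with Cish set against 3 counts at 0 min. Since the scale was set by size factors, all changes are relative to the typical gene: scaling by total counts lowered every log2 ratio by up to 0.33 (at 75 min) and by 0.20 at 120 min.

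**Figure D2:**
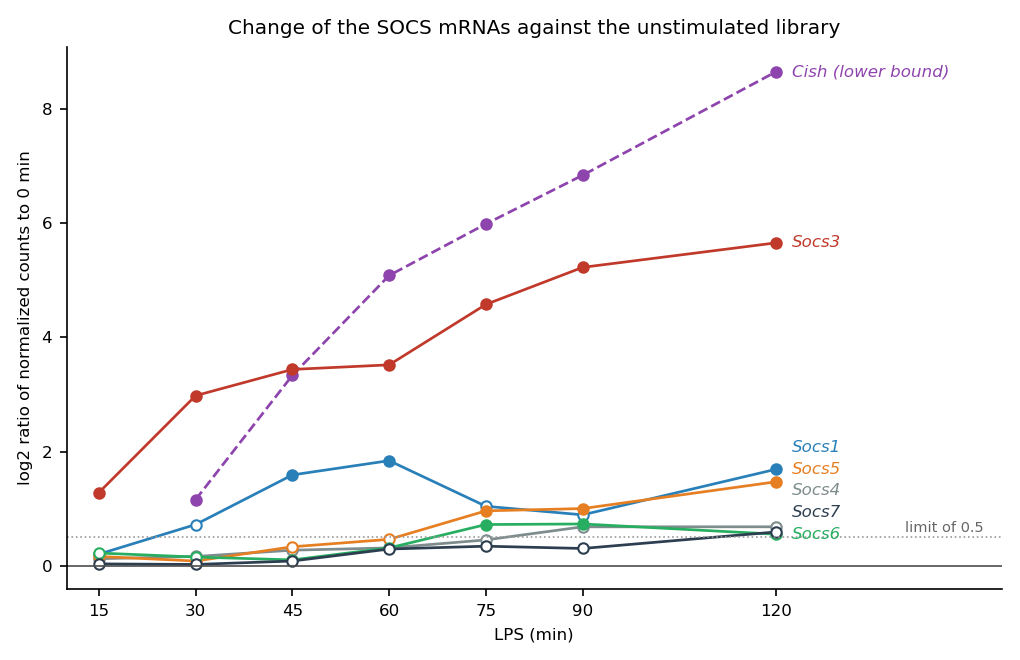
Log2 ratio of the normalized count to the 0 min library against minutes of LPS for 7 SOCS mRNAs, with filled points where the gene was called and the dotted line at the limit of 0.5. Cish had no count at 0 min and is drawn dashed against 3 counts there. Its label of lower bound leaves out counting error in the stimulated libraries. Socs3 reaches 5.66 at 120 min, Socs1 is at 1.84 at 60 min and 1.69 at 120 min, and Socs4 and Socs7 have open points only.

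Socs3, whose product inhibits JAKs bound to gp130, the receptor chain shared by the IL-6 family, was the SOCS gene called earliest, and from 30 min on it had the most reads of the family. In the 8 libraries in order of time, from 0 to 120 min, its normalized counts were 1294, 3154, 10219, 14013, 14798, 30986, 48468 and 65652. Every stimulated library thus stood above the unstimulated one, and the values never turned down. The ratio to 0 min was 2.44 at 15 min (95% interval 2.29 to 2.59, p = 0.00031, exact negative binomial test), 11.4 at 60 min (10.8 to 12.1) and 50.7 at 120 min (48.2 to 53.4, p = 1.7e-40, exact test). Among the 12166 genes, its log2 ratio with a pseudocount of 1 ranked 36 at 15 min and 31 at 120 min.

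Of the steps of Socs3 between neighbouring libraries, those from 0 to 15, from 15 to 30 and from 60 to 75 min were called. From 15 to 30 min it rose 3.24-fold (3.12 to 3.37, p = 2.3e-06, exact test), but from 30 to 45 min and from 45 to 60 min the ratios were 1.37 (1.34 to 1.41, p = 0.2, exact test) and 1.06 (1.03 to 1.08, p = 0.82, exact test). From 60 to 75 min it rose again, 2.09-fold (2.05 to 2.14, p = 0.0031, exact test). The later ratios were 1.56 from 75 to 90 min (1.54 to 1.59, p = 0.065, exact test) and 1.35 from 90 to 120 min (1.34 to 1.37, p = 0.22, exact test), neither of them called. The step from 60 to 75 min goes from a library with a low to one with a high Rn45s share. Within the 4 libraries of high share, Socs3 was 2.21-fold higher at 75 than at 45 min (2.16 to 2.26, p = 0.0012, exact test), and within the 4 of low share it was 4.44-fold higher at 120 than at 60 min (4.36 to 4.51, p = 3.1e-09, exact test). From 30 to 60 min, within the latter set, the ratio was 1.45 (1.41 to 1.48, p = 0.13, exact test).

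Cish, the founding member of the family, whose product competes with STAT5 for phosphorylated receptors, went from no read before LPS to 1281 reads at 120 min. Its raw counts in order of time were 0, 2, 7, 23, 98, 116, 232 and 1281. The normalized counts were 0, 1.90, 5.73, 26.0, 87.3, 163.3, 294.5 and 1038. Each library was thus above the one before it. The 0 min library was set at the 3 counts that an observed 0 allows. On that basis Cish was 2.23-fold higher at 30 min (p = 0.024, exact test). At 60 min it was 34-fold higher, and at 120 min 405-fold (p = 1.4e-44, exact test). These ratios leave out counting error in the stimulated libraries. With that error included, the lower limits of the ratios were 1.38, 27.1 and 329. The largest steps for which counts are adequate were 4.53-fold from 30 to 45 min (1.88 to 12.5), 3.36-fold from 45 to 60 min (2.12 to 5.54) and 3.52-fold from 90 to 120 min (3.06 to 4.07), and all 3 were called. By log2 ratio with a pseudocount of 1, which depends on that pseudocount, Cish ranked 5 of 12166 genes at 120 min. The annotated Cish gene overlaps an antisense gene, Gm17041, and a pseudogene, Gm17040, on the other strand. The library kit marks strand, but whether the counting used it is not given in the sources used here, so reads of these neighbours cannot be told apart from those of Cish.

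Socs1, whose product blocks JAKs downstream of interferon receptors, rose by 45 min, at low counts. It was highest at 60 min, with the 120 min library close to that value. In order of time the raw counts were 32, 33, 55, 73, 110, 40, 40 and 109, or 27.4, 31.4, 45.0, 82.5, 97.9, 56.3, 50.8 and 88.3 after normalization. The 45, 60 and 120 min libraries were the highest, and the 75 and 90 min libraries lay between them and the early ones. Against 0 min the ratio was 3.01 at 45 min (1.96 to 4.72, p = 0.0032, exact test), 3.58 at 60 min (2.39 to 5.48, p = 0.00044, exact test) and 3.23 at 120 min (2.16 to 4.95, p = 0.0013, exact test), whereas the 2.06 at 75 min (p = 0.075, exact test) and the 1.86 at 90 min (p = 0.13, exact test) were not called.

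The call of the dip of Socs1 at 75 and 90 min depended on the scale. The ratio of 75 to 60 min was 0.575 (0.39 to 0.833, p = 0.13, exact test) and that of 90 to 60 min was 0.519 (0.352 to 0.751, p = 0.07, exact test), neither of them called. Scaled by total counts the latter was 0.463 and was called (p = 0.047, exact test), whereas with total counts without Rn45s it was 0.504 (p = 0.066, exact test) and with TMM factors 0.512 (p = 0.064, exact test). Both steps go from a library of low to one of high Rn45s share. Within the libraries of high share the ratio of 75 to 45 min was 0.683 (0.453 to 1.02). That of 90 to 45 min was 0.616 (0.408 to 0.918), and neither was called. Within the libraries of low share the ratio of 120 to 60 min was 0.902 (0.686 to 1.19). The rise itself was present in both sets, at 2.63-fold from 15 to 45 min (1.72 to 4.09, p = 0.0094, exact test) and at 3.58-fold from 0 to 60 min. Without the 60 min library the highest value of Socs1 was that at 120 min.

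Socs2, whose product acts on growth hormone receptor signalling, had 12 reads in all. They fell on the libraries in order of time as 5, 2, 2, 1, 1, 1, 0 and 0. The 0 min library held the most, but the 120 min library was not called lower. Its ratio to 0 min was 0 (0 to 1.03, p = 0.24, exact test), an interval that includes an unchanged level. A change of Socs2 was not detectable at this depth.

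**Figure D3:**
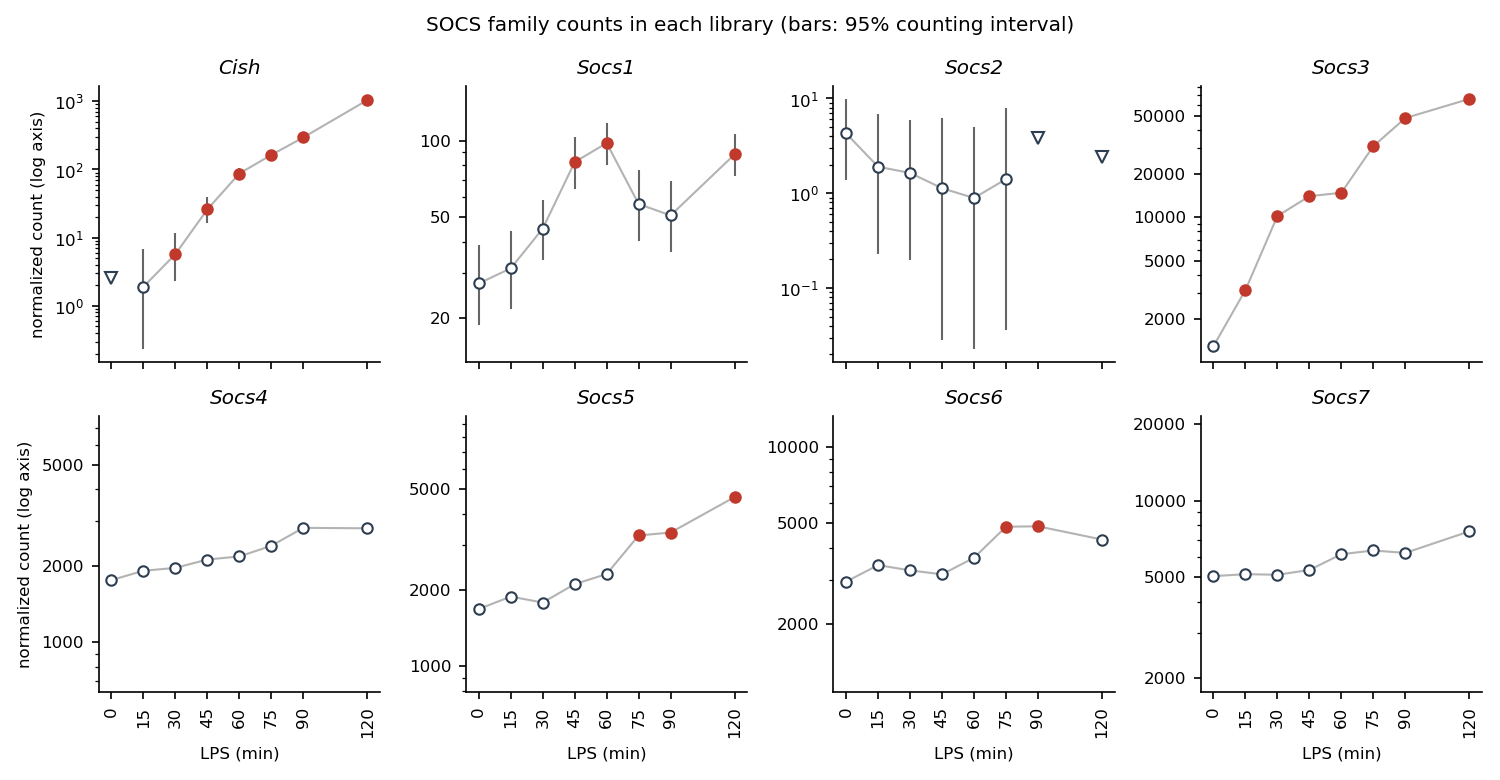
Normalized count (log axis, own range per panel) of each SOCS gene in the 8 libraries against minutes of LPS, with 95% counting intervals as bars, filled red points where the library was called higher than 0 min and open triangles at the limit allowed by a count of 0. Cish and Socs3 climb through 120 min, Socs1 is highest at 45, 60 and 120 min, and Socs4 and Socs7 stay within 1.61-fold of their 0 min value.

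Socs4 to Socs7 form the branch with long N-terminal regions, known less for cytokine feedback than for the EGF receptor (SOCS4 and SOCS5) and for insulin signalling (SOCS6 and SOCS7). In these cells they had at least 1684 normalized counts in every library, and the calls among them came late and at small ratios. Among them Socs5 changed most. Its normalized counts in order of time were 1684, 1885, 1785, 2111, 2313, 3284, 3372 and 4653. The libraries from 0 to 60 min lay between 1684 and 2313, and the later ones all stood above them. Against 0 min the ratio was 1.95 at 75 min (1.84 to 2.07, p = 0.0084, exact test), 2 at 90 min (1.89 to 2.12, p = 0.0056, exact test) and 2.76 at 120 min (2.63 to 2.91, p = 4.3e-05, exact test). The call at 120 min was kept under every alternative scale, test and set of libraries tried. Those at 75 and 90 min were lost when libraries were scaled by total counts (log2 ratios of 0.63 and 0.74). Within the libraries of high Rn45s share, the ratio of 75 to 45 min was 1.56 (1.46 to 1.65). That of 90 to 45 min was 1.6 (1.51 to 1.7), and neither was called. Within the libraries of low Rn45s share, Socs5 rose 2.01-fold from 60 to 120 min (1.92 to 2.11, p = 0.0045, exact test).

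Socs6 had normalized counts, in order of time, of 2945, 3423, 3262, 3148, 3658, 4850, 4869 and 4318. It was highest at 75 and 90 min, both libraries of high Rn45s share, and its calls there were narrow, with a ratio to 0 min of 1.65 (1.57 to 1.73, p = 0.047, exact test) and 1.65 (1.58 to 1.73, p = 0.043, exact test). Scaling by total counts brought the log2 ratio at 90 min from 0.73 to 0.46 and ended the call, and so did TMM factors and leaving out the 30 min or the 60 min library. Within the set of high share the 75 min library was 1.54-fold above the 45 min library (1.47 to 1.62, p = 0.078, exact test), and within the other set the 120 min library was 1.47-fold above 0 min (1.4 to 1.53, p = 0.12, exact test), neither of them called. The part of the Rn45s share in the result was not tested.

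Socs4 and Socs7 were not called at any time. The normalized counts of Socs4 in order of time were 1754, 1909, 1959, 2114, 2174, 2394, 2819 and 2807, and its ratios to 0 min of 1.61 at 90 min (1.51 to 1.71, p = 0.058, exact test) and 1.6 at 120 min (1.51 to 1.69, p = 0.055, exact test) lay just outside the threshold. With the dispersion trend of DESeq2, and at 90 min without the 120 min library, Socs4 was called. Those of Socs7 were 5040, 5134, 5104, 5332, 6151, 6365, 6225 and 7569, with a ratio of 1.5 at 120 min (1.45 to 1.55, p = 0.094, exact test). With the median-of-ratios factors, all log2 ratios of Socs4 to Socs7 to 0 min were above 0. Other scales moved some of them to 0 or below: with total counts Socs6 was at -0.09 at 45 min and Socs7 at -0.04, -0.01 and -0.11 at 15, 30 and 45 min and at 0.00 at 75 min, with total counts without Rn45s Socs7 was at -0.02 at 30 min, and with TMM factors it was at 0.00 at 30 min.

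The extremum rules of the study's methods, which compare all 28 pairs of libraries, place a gene in a group of rising mRNAs (g1) when its maximum comes at 60 min or later. Of the 8 members, 5 were in g1, against 9.64% of the 12166 genes tested: Cish, Socs3 and Socs5 with a maximum at 120 min, Socs1 at 60 min and Socs6 at 90 min. Socs2, Socs4 and Socs7 had no extremum (g0). No member was in the groups that fall or that rise and fall early. Cish, Socs1, Socs3 and Socs5 were in g1 in every alternative tried, while Socs6 left it with total counts (with or without Rn45s), TMM factors, a log2 limit of 1, Benjamini-Hochberg adjustment, the 4 libraries of low Rn45s share alone, and without the 30 or the 60 min library. Socs4 entered it with the dispersion trend of DESeq2 and without the 120 min library.

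Promoter sequence is shown for the 3 members of the cytokine-feedback branch that rose and have an entry in the RefSeq promoter table used here (GRCm38.p6), each from 250 bases before to 49 bases after the start which that table uses, read 5′ to 3′ on the gene's strand. Capitals mark matches to the STAT pattern TTCNNNGAA in Cish and Socs3 and, in Socs1, to the interferon-stimulated response element (ISRE), searched as a pair of GAAA blocks with any 2 bases between them. The Cish window is chr9:107296409-107296708 on the plus strand, that of Socs3 is chr11:117969317-117969616 on the minus strand and that of Socs1 is chr16:10785487-10785786 on the minus strand.
Cish: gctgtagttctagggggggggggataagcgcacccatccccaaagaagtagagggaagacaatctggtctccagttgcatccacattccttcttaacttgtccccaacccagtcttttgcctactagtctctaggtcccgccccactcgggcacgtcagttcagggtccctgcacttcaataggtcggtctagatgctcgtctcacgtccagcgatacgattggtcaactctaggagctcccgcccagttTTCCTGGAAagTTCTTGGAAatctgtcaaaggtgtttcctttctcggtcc
Socs3: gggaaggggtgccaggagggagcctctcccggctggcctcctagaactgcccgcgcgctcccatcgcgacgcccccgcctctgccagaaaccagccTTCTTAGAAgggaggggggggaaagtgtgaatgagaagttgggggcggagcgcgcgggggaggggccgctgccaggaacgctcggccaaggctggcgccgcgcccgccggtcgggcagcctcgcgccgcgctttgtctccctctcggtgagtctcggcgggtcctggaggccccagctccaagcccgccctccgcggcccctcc
Socs1: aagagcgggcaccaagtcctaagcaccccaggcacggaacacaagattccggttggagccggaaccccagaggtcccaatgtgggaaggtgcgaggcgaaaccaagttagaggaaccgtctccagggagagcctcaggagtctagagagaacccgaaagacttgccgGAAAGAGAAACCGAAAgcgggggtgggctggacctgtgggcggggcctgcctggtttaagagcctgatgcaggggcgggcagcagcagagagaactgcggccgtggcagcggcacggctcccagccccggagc

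Both strands were searched. Cish held 2 STAT matches, which begin at 0 and at 11 bases from that start, an arrangement of at least 2 matches found in 0.457% of the 32851 promoters of the same length. Socs3 held 1 match, which begins at position -154 from the start in the table, and at least 1 was present in 8.3% of promoters. Socs1 held 2 ISRE matches that overlap each other, beginning at positions -83 and -77, where 3.44% of promoters held at least 1 and 0.225% at least 2. No match to either pattern was present in the Socs4 window. None of the 4 windows matched the AP-1 pattern TGANTCA (7.81% of promoters), the CRE pattern TGACGTCA (1.79%) or the NF-kB consensus (4.51%). Socs2, Socs5, Socs6 and Socs7 were not searched. A match is a description of letters in this window and not a measured binding site. In GENCODE the Cish transcript used here begins at base 107296026, upstream of the RefSeq start at base 107296659, so positions for Cish hold for the RefSeq start only. For Socs3 the start in the promoter table is base 117969366, which lies 970 bases downstream of the 5′ end of the RefSeq gene and 180 bases upstream of the GENCODE transcript start at base 117969186. The Socs3 window is therefore not the sequence before the 5′ end of the RefSeq gene.

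**Figure D4:**
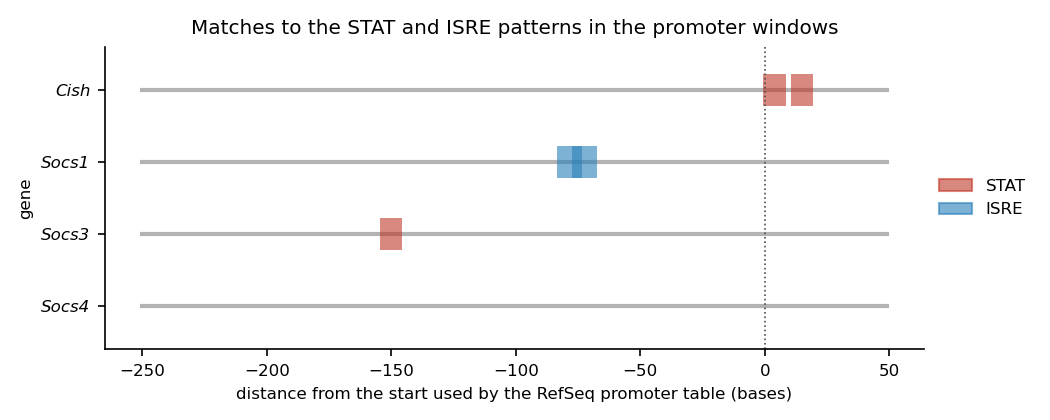
Position of pattern matches (coloured blocks, drawn to scale) in the promoter windows of 4 SOCS genes against distance in bases from the start used by the RefSeq promoter table (dotted line), which for Socs3 is not the 5′ end of the RefSeq gene. Cish has 2 STAT matches at its start, Socs3 has 1 STAT match at -154, Socs1 has 2 overlapping ISRE matches at -83 and -77, and Socs4 has none.

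The pentamer AUUUA, the core of AU-rich elements that mark many cytokine mRNAs for rapid decay, was counted in the 3′UTRs of the GENCODE transcripts. Its density per kb was 3.28 in Socs4 (17 pentamers), 2.76 in Cish (3), 2.71 in Socs3 (4), 1.97 in Socs6, 1.72 in Socs2, 1.54 in Socs5, 0.965 in Socs7 and 0 in Socs1. The median over 11301 genes was 1.24, and 67.3% of them had at least 1 pentamer. For Cish, Socs2 and Socs6 longer transcripts are annotated than those counted, and the density in the longer ones was not computed. The order by density differed from the order by change. Socs4, which was not called, had the highest, and Socs1, which was called, had none. Cish and Socs3, which had the largest rises, came next after Socs4. A link between density and change was not tested. To show how the pentamers lie, the 30-base window with the most of them is printed for 3 members (T for U, pentamers in capitals), and the 3 pentamers of Cish share bases in a row of ATTTA repeats.
Cish: ctacacagttatacagtATTTATTTATTTA
Socs3: actcagactttgcacatatATTTAtATTTA
Socs4: ataaATTTAcatatggtccaggcatATTTA

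The 8 genes differ in build. The coding region had 257 codons in Cish, 212 in Socs1, 198 in Socs2 and 225 in Socs3, against 436 in Socs4, 536 in Socs5, 533 in Socs6 and 579 in Socs7. The transcripts had 2 or 3 exons except that of Socs7, which had 10. Nearly all 58-base stretches of these transcripts were unique to the gene, the exception being Socs4 with 6790 of 6810. In RefSeq coordinates (GRCm38), Socs3 and Socs7 lie on the same chromosome, at chr11:117966079-117970336 (minus strand) and chr11:97362292-97398542 (plus strand). Cish lies at chr9:107296659-107302784 (plus), Socs1 at chr16:10783808-10785536 (minus), Socs2 at chr10:95383903-95417321 (minus), Socs4 at chr14:47276920-47296102 (plus), Socs5 at chr17:87107278-87137647 (plus) and Socs6 at chr18:88865169-88894364 (minus).

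The genes whose course over the 8 libraries was most like that of a member were sought among 1568 genes that averaged at least 100 normalized counts and spanned at least 1 on the log2 scale. The measure is Pearson's r of log2(normalized count + 1), given as a description, since all values share the same 8 libraries and a common rise with time. For Socs3 they were Phlda1 (r = 0.992), Gbp3, which encodes a guanylate-binding protein, Cd69, an early activation antigen, Gpr84, a receptor for medium-chain fatty acids, and the ribosome assembly gene Rrs1 (r = 0.981). Phlda1 was also near to Socs3 in size, at 51-fold (39.9 to 66.3) from 0 to 120 min, whereas Rrs1 was 2.08-fold higher (2.05 to 2.12). For Cish they were Pvr (r = 0.996), BC016423, Rrs1, Ehd1, which acts in endocytic recycling, and Zc3h12c (r = 0.992), a CCCH zinc finger gene. For Socs1, they were Sik1 (r = 0.970), a salt-inducible kinase gene, Sertad1, Itpkc, Zfp948 and Rasgef1b (r = 0.940). Ap3m2 (r = 0.945), Tmem106a, B3gnt1, Jmjd7 and Dbp (r = 0.926) were most like Socs2, a likeness that rests on its 12 reads. Between members, r was 0.97 for Cish with Socs3 and 0.73 for Socs1 with Socs3. It was also 0.96 for Cish with Socs4 and 0.94 for Cish with Socs7, although Socs4 and Socs7 were called at no time. For Socs1 with Socs6 it was 0.33, and for Socs2 with Socs3 it was -0.91.

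Several of the secreted ligands went from almost no reads to many. Of 23 genes of cytokines that signal through JAKs, 4 were called higher at 30 min, 7 at 60 min and 9 at 120 min, with none lower at these times, against 1.42%, 4.23% and 9.41% higher among all genes. Of the 12 ligand genes that passed the filter, 7 had under 10 normalized counts at 0 min and passed through their stimulated libraries, so all 7 had to differ. Of the other 5, 2 were higher at 120 min (Osm and Il27). Csf3, which encodes G-CSF, whose receptor is restrained by SOCS3, went from 3 counts at 0 min to 11887 at 120 min, 3754-fold after normalization (1284 to 18205). Lif, a gp130 ligand, went from 4 to 12718 counts, 3012-fold (1176 to 11057). Ifnb1 (interferon beta) and Csf2 (GM-CSF) had no count at 0 min. Against 3 counts there, they were 132-fold and 76.1-fold higher at 120 min. With counting error at 120 min included, the lower limits of these ratios were 107 and 61.4. Il6, a textbook inducer of Socs3, had 1 count before LPS and 1202 at 120 min, a ratio of 1139 (204 to 45014). Il10, another such inducer, went from 4.28 normalized counts to 193 at 120 min, a ratio of 45.1 (19.1 to 140).

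At 30 min, when Socs3 was 7.89-fold above the untreated library (7.48 to 8.33), the 4 ligand genes called higher were Lif, Osm, Csf3 and Il23a. Among these Osm, which encodes oncostatin M, a gp130 ligand, had the most reads, with 353.3 normalized counts at 0 min, 401.6 at 15 min and 825.4 at 30 min. Il6, Il10 and Ifnb1 were not called at 30 min, with 4, 12 and 4 reads (3.28, 9.83 and 3.28 normalized counts). At so few reads the lack of a call does not show a lack of change. Of the receptor chain genes, Osmr had 1 read at 60 min and 0 in every other library. Lifr had 151.5 normalized counts at 30 min. Whether any of these ligands acted on Socs3 was not tested. Secreted protein was not measured in these libraries.

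Receptor chain genes moved in both directions, and most JAK and STAT genes were not called. Of 30 receptor chain genes 25 passed the filter. At 30 min 1 was higher, against 1.42% of all genes. At 60 min 3 were higher and 1 lower, against 4.23% and 3% of all genes. By 120 min 5 were higher and 4 lower, against 9.41% and 8.57% of all genes. Il21r had the largest change, at 0.0743 of its 0 min level at 120 min (0.0376 to 0.134). Il7r (5.63-fold, 3.35 to 10), Prlr (2.84-fold, 1.55 to 5.49) and Il2ra (2.78-fold, 1.96 to 4.01) were higher, at few reads. At 0 min they had 17, 15 and 44 reads, and at 120 min 101, 45 and 129. Il10ra, the IL-10 receptor chain, was also higher, at 2.68-fold (2.6 to 2.76). Of the 4 JAK genes Jak2 alone was called at 30, 60 or 120 min, 1.9-fold higher at 120 min (1.83 to 1.97). Of 7 STAT genes 6 passed the filter, and Stat2 alone was called, lower at 60 min (0.504 of 0 min) and at 120 min (0.417, 0.374 to 0.465). The median log2 ratio at 120 min (pseudocount of 1) was -0.17 for the receptor chains, 0.22 for the JAKs and -0.40 for the STATs, beside -0.01 for all genes.

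Among the other brakes on the same pathway, 2 of 12 genes were called at any time (PIAS proteins, phosphatases, adaptors and Usp18 were examined). Over the 12166 genes tested, 9386 were called at no time. At 120 min 1 of 12 was higher and 1 lower, a number close to the 9.41% and 8.57% of all genes. Cbl, a ubiquitin ligase gene, was called higher at 45 min, at 2.07-fold (1.99 to 2.16), and at 120 min, at 1.64-fold (1.58 to 1.71), but not between them. Pias3, an inhibitor of STAT3, was called lower at 75 and 90 min, and at 120 min it was at 0.444 of its 0 min level (0.409 to 0.482). The ligase parts that the SOCS box recruits (elongins, cullins, RING proteins and the NEDD8 system) had 1 of 8 genes called at any time. It was Ube2f, higher at 120 min at 1.62-fold (1.57 to 1.67), where 9.41% of all genes were higher. Of 27 other genes that encode SOCS box proteins 18 passed the filter. Wsb1 was called higher at 45 and 60 min only. At 120 min, 4 of the 18 were lower, against 8.57% of all genes, including Asb10 at 0.264 (0.223 to 0.312), Spsb2 at 0.282 (0.247 to 0.32) and Rab40c at 0.362 (0.333 to 0.392) of 0 min, and Asb1 alone was higher, at 2.49-fold (2.37 to 2.61). Their median log2 ratio was -0.18.

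Among proteins that SOCS1, SOCS3, SOCS6 or SOCS7 bind in Toll-like receptor and insulin signalling, 8 of 11 genes passed the filter. Rela, which encodes the NF-kB subunit p65, a known SOCS1 substrate, was the one called, higher from 45 min on, at 2.39-fold at 60 min and 2.2-fold at 120 min (2.12 to 2.28). That is 1 of 8 genes, against 4.23% of all genes higher at 60 min and 9.41% at 120 min. The adaptor gene Tirap, also a target of SOCS1, was not called, at 5181 normalized counts at 0 min and 5663 at 120 min.

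Other genes that cytokines induce through STATs included several with large rises. Of 12 such genes, all of which passed the filter, 4 were higher at 30 min, 5 at 60 min and 8 at 120 min, with 2 lower at 120 min, against 1.42%, 4.23% and 9.41% higher and 8.57% lower among all genes. Pim1, a kinase gene, was 31.7-fold higher at 120 min (29.2 to 34.5), Myc 26-fold (23.3 to 29), Junb 8.64-fold (8.5 to 8.78) and Cebpd 4.19-fold (4.03 to 4.36). Lower at 120 min were Irf1, at 0.288 (0.262 to 0.315), and Ccnd1, at 0.506 (0.501 to 0.512). The median log2 ratio of this list at 120 min was 1.26. Several of these genes are also induced by routes other than STATs, so the list does not measure STAT activity.

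**Figure D5:**
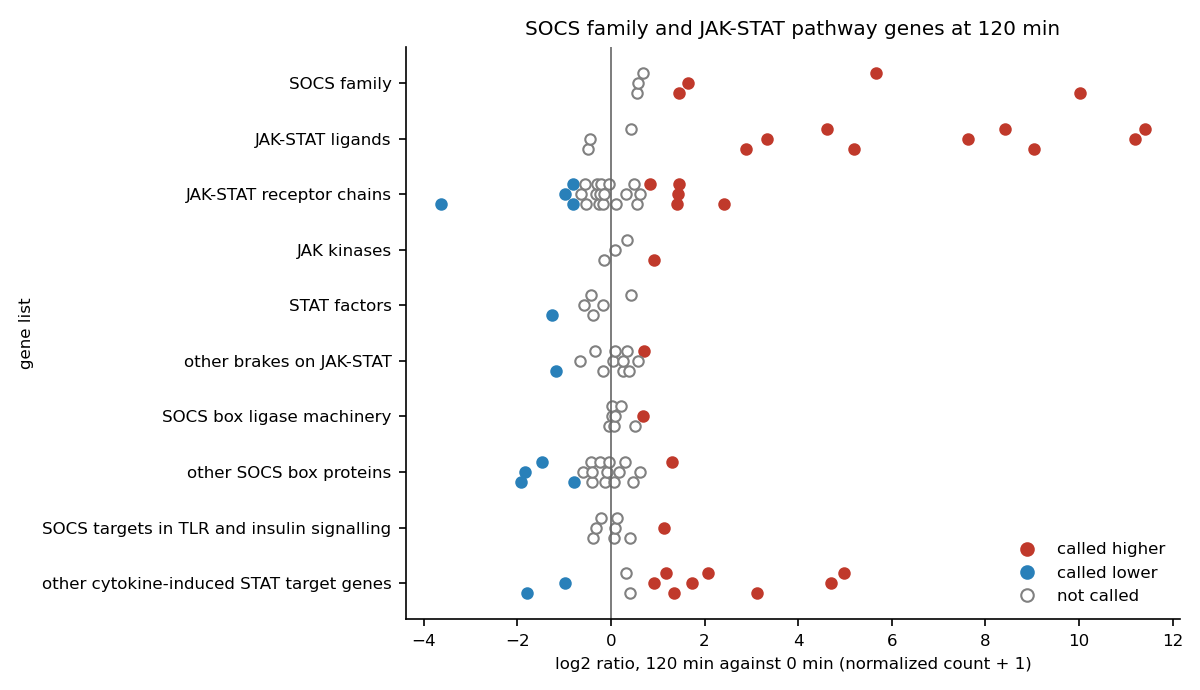
Log2 ratio of normalized count + 1 at 120 min to 0 min for each gene that passed the filter (points), by gene list, with red points for genes called higher, blue for genes called lower and open for neither. The ligands reach furthest to the right, with 9 of the 23 listed called higher and 7 of the 12 drawn having passed the filter through stimulated libraries, while 3 of 4 JAKs and 5 of 6 STATs were not called.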

How the data were processed

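RNA of 8 RAW264.7 cultures, 1 per time point, was depleted of ribosomal RNA and sequenced by the authors. The labels give the molecule as total RNA and the fraction as cytoplasmic. What the authors deposited are raw counts of reads, summed by gene symbol. Per their methods, 58-base reads were aligned with Bowtie to RefSeq transcripts (mm10), with up to 2 mismatches, and reads of more than 1 gene were dropped. The submitters' notes name CASAVA 1.8.2 and DESeq 1.10.1; the version of Bowtie is not given in the sources used here. Every count column was used (0 left out).

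The SOCS members and all gene lists were chosen with earlier results of these data known. Size factors, one dispersion trend (0.0287 + 0.853/mean, the 8 libraries taken as replicates) and the exact negative binomial test (doubled smaller tail) were computed in Python 3.11.15 (numpy 2.4.6, scipy 1.17.1, pandas 2.3.3, numba 0.67.0) after the settings of the study, and tested on simulated data. The simulation held large changes in genes of high count, at a dispersion below this trend. It therefore does not bear on small ratios or low counts. The quasi-likelihood test of edgeR could not be fitted, as 1 library per time point leaves no residual degrees of freedom. A ratio has an exact conditional binomial 95% interval. The limit behind a count of 0 is 3 counts. Figures were drawn with matplotlib 3.10.9. Transcripts are from GENCODE vM21, promoters and coordinates from RefSeq.

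All members were named, with the 5 most similar genes for each of the 3 members with the largest log2 ratios (Cish, Socs3 and Socs2), up to 4 called genes per list, by size, and Rn45s. Genes named beyond that rule were chosen after their values were seen. They were those most like Socs1, and Il6, Il10, Osm, Il23a, Il10ra, Lifr, Osmr, Tirap, Irf1, Ccnd1, Il27 and Wsb1. Alternatives were other scales (total counts with and without Rn45s, TMM factors of edgeR 4.0.16), the fold limit alone, Benjamini-Hochberg adjustment, a log2 limit of 1, no filter, the dispersion trend of DESeq2 1.42.0 (R 4.3.3), each library left out, the 4 libraries of low Rn45s share alone, a pseudocount and other transcript lengths, the RefSeq gene span being added after the data were seen.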

Additional observations from a re-analysis of the deposited data

How the results depend on the processing

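No value changed direction among the counts of called members and the members' largest log2 ratios. With the fold limit alone, 2 members were higher at 15 min and 7 at 120 min, and 1 (Socs2) was lower at each of the 7 time points. Benjamini-Hochberg adjustment, with or without the filter, left 0 members higher at 15 min (1 by unadjusted p), 1 at 30 min and 2 at both 75 and 90 min. Total counts left 2 at 75 and 2 at 90 min, and a log2 limit of 1 left 2 at 75 min. The adjustment and the limit of 1 are stricter calls, and total counts lower every log2 ratio of a library alike. Leaving out single libraries gave 3 to 4 members higher at 75 min and 3 to 5 at 90 min. The other 210 recomputed values that answer a comparison kept their direction and their call, or stayed within 1.5 times of the count reported. Over all genes, 1145 were higher and 1043 lower at 120 min, but 633 and 1237 with total counts, 712 and 1423 with total counts without Rn45s, and 622 and 524 with Benjamini-Hochberg adjustment. The fall of Socs1 from 60 to 90 min was called with total counts alone among the scales, the dispersion trend of DESeq2 and the libraries left out (p = 0.047, against 0.055 to 0.13, exact test). The depth limits Socs2, Cish before 45 min and the dip of Socs1. With 1 library per time point, culture-to-culture spread cannot be told apart from time. No paired analysis was possible because no group has more than 1 library.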
